A study of Mus musculus with 24 samples.

Results

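The genes described here are 4 muscle regulatory factors (Myod1, Myog, Myf5 and Myf6) and 2 genes that mark satellite cells, the stem cells of muscle (Pax7 and Cdh15). They were chosen by name with earlier results of these data known, and each was read by 1 probe set annotated to that symbol alone. They are 6 of the 19938 genes with such a probe set, and all 6 passed the filter on dim genes, which left 15999 genes for the tests. RNA was measured on 24 Affymetrix arrays from male mice aged 40 to 42 days, with 6 arrays in each of 4 groups: quadriceps cKO, quadriceps control, soleus cKO and soleus control. All mice, controls included, carried 2 copies of a conditional nebulin allele, and their background mixed 2 strains that the labels write as C57BL/6J and 1219S6/SvEvTac. The conditional knockouts (cKO) also carried 1 copy of an MCK-Cre transgene, which the controls lacked. The MCK promoter, that of muscle creatine kinase, is active in differentiated striated muscle, so the deletion is directed at muscle fibres. By the submitters' account the cKO quadriceps was markedly smaller than normal, while soleus size did not differ significantly.

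Muscle regulatory factors are transcription factors of the basic helix-loop-helix class that pair with E proteins and bind the E-box, CANNTG. Myf5 and Myod1 commit cells to the muscle lineage, Myog drives the differentiation of myoblasts into fibres and rises in adult fibres after loss of the nerve, and Myf6 (also called MRF4) is the family member that prevails in mature fibres. Pax7 is the transcription factor that maintains satellite cells, and Cdh15 encodes M-cadherin, which joins satellite cells to the fibre. In rat muscle, Myod1 transcripts are known to be more abundant in fast muscle and Myog transcripts in slow muscle.

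The stretches before the start sites are shown because CANNTG is the motif that the regulators themselves bind and CTANNNNTA is a loose form of the core bound by MEF2, their partner factor. A promoter entry was matched for 4 of the 6 genes (Myog, Cdh15, Myf5 and Pax7) in a RefSeq table of build GRCm38.p6. Each line runs 5′ to 3′ from 250 bases before the start site through the first 30 transcribed bases, and capitals mark every CANNTG and every CTANNNNTA on either strand.
Myog promoter, chr1:134289754-134290033, plus strand: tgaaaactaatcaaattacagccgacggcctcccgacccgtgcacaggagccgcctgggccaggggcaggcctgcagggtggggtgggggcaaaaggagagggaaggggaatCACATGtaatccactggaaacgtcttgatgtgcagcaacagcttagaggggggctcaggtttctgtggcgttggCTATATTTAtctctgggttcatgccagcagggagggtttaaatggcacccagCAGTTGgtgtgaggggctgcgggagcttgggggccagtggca
Cdh15 promoter, chr8:122848124-122848403, plus strand: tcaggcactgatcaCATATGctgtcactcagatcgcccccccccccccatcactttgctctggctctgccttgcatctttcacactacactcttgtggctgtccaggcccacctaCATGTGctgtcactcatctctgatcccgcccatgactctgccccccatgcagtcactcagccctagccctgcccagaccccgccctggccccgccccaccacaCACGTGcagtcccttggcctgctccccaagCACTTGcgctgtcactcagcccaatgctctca
Myf5 promoter, chr10:107486105-107486384, minus strand: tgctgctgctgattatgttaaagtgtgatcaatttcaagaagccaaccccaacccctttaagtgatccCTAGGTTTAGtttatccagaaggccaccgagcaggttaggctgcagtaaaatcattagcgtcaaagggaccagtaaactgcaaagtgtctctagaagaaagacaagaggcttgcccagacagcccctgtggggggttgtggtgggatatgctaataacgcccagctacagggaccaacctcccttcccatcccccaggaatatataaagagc
The Myog stretch held 2 E-boxes, CACATG starting 138 bases and CAGTTG starting 12 bases before the start site, and 1 CTATATTTA starting 64 bases before it. At least 1 E-box was found in 70.1% of the 32851 promoters of the table and at least 2 in 36.7%, while CTANNNNTA was found in 20.2%. The Cdh15 stretch held 4 E-boxes, a number reached by 5.4% of promoters. In the Myf5 stretch no CANNTG was found, and CTANNNNTA matched at a pair of overlapping places, starting 182 and 181 bases before the start site. Neither motif was found in the Pax7 stretch (chr4:139832939-139833218, minus strand). The start sites of the table for Myf5 and Pax7 lay 793 and 562 bases inside the annotated genes, so these 2 stretches lie within the genes, whereas those for Myog and Cdh15 were the first bases of the genes. Such matches are letters in a window and were not tied to any measurement of binding.

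By RefSeq, Myog (Entrez gene 17928) lies at chr1:134290004-134292548, Myod1 (17927) at chr7:46376474-46379092, Pax7 (18509) at chr4:139737059-139833530 and Cdh15 (12555) at chr8:122848374-122867397, all on GRCm38.p6. Myf5 (17877, chr10:107482908-107486927) and Myf6 (17878, chr10:107492848-107494723) are neighbours with 5920 bases between them. Levels below are log2 intensities, and levels of different genes are not compared because each probe set has its own response.

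The targeted gene followed the labels. Neb read 10.50 to 11.16 on quadriceps cKO arrays, against 12.11 to 12.50 on quadriceps controls, and 10.94 to 11.48 on soleus cKO arrays, against 12.04 to 12.56 on soleus controls. The slow myosin Myh7, a fibre marker, followed the muscle labels: it read 12.46 to 12.92 in soleus controls, against 8.98 to 11.12 in quadriceps controls. Quadriceps controls 1 and 6 read 11.12 and 10.90 for Myh7, and the other quadriceps controls at most 9.37. The array medians lay between 4.74 and 4.94. Quadriceps control 4 and soleus control 1 had the lowest median correlation with the other arrays of their groups (0.973 and 0.981). Soleus control 1 had a Neb level of a control, 12.04, but read 12.92 for Myh7, 12.19 for slow troponin I (Tnni1) and 9.80 for embryonic myosin (Myh3). The other 5 soleus controls read at most 12.52, 11.50 and 7.68 for these genes, and soleus cKO arrays read 12.91 to 12.99 for Myh7, 12.24 to 12.39 for Tnni1 and 11.24 to 12.06 for Myh3. On that array 5 of the 6 genes described here (Myod1, Myog, Myf6, Pax7 and Cdh15) were the highest of the soleus controls. Where leaving out quadriceps control 4, soleus control 1 or both changed a call on 1 of the 6 genes, the value is given beside it.

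In the cKO quadriceps all 6 genes rose, whereas 22.3% of all genes tested were called higher and 17.7% lower at an adjusted p under 0.05, or 40.0% in all. The largest change was in Myog, followed by Myod1, Myf6 and Myf5, with the satellite cell genes Pax7 and Cdh15 changing least. In whole muscle, more cells of a type and more RNA per cell cannot be told apart. In the cKO soleus 4 of the 6 rose (Myog, Myf6, Myod1 and Cdh15), whereas 23.1% of all genes were called, 13.2% higher and 9.94% lower. The share of calls that were higher depended on the scaling: it was 55.7% in quadriceps and 57.0% in soleus, and between 29.2% and 53.0% and between 47.3% and 66.9% under 4 other scalings. The median change of the 6 genes was 0.76 in quadriceps and 0.64 in soleus, and that of all genes tested was -0.01 and -0.02.

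**Figure D1:**
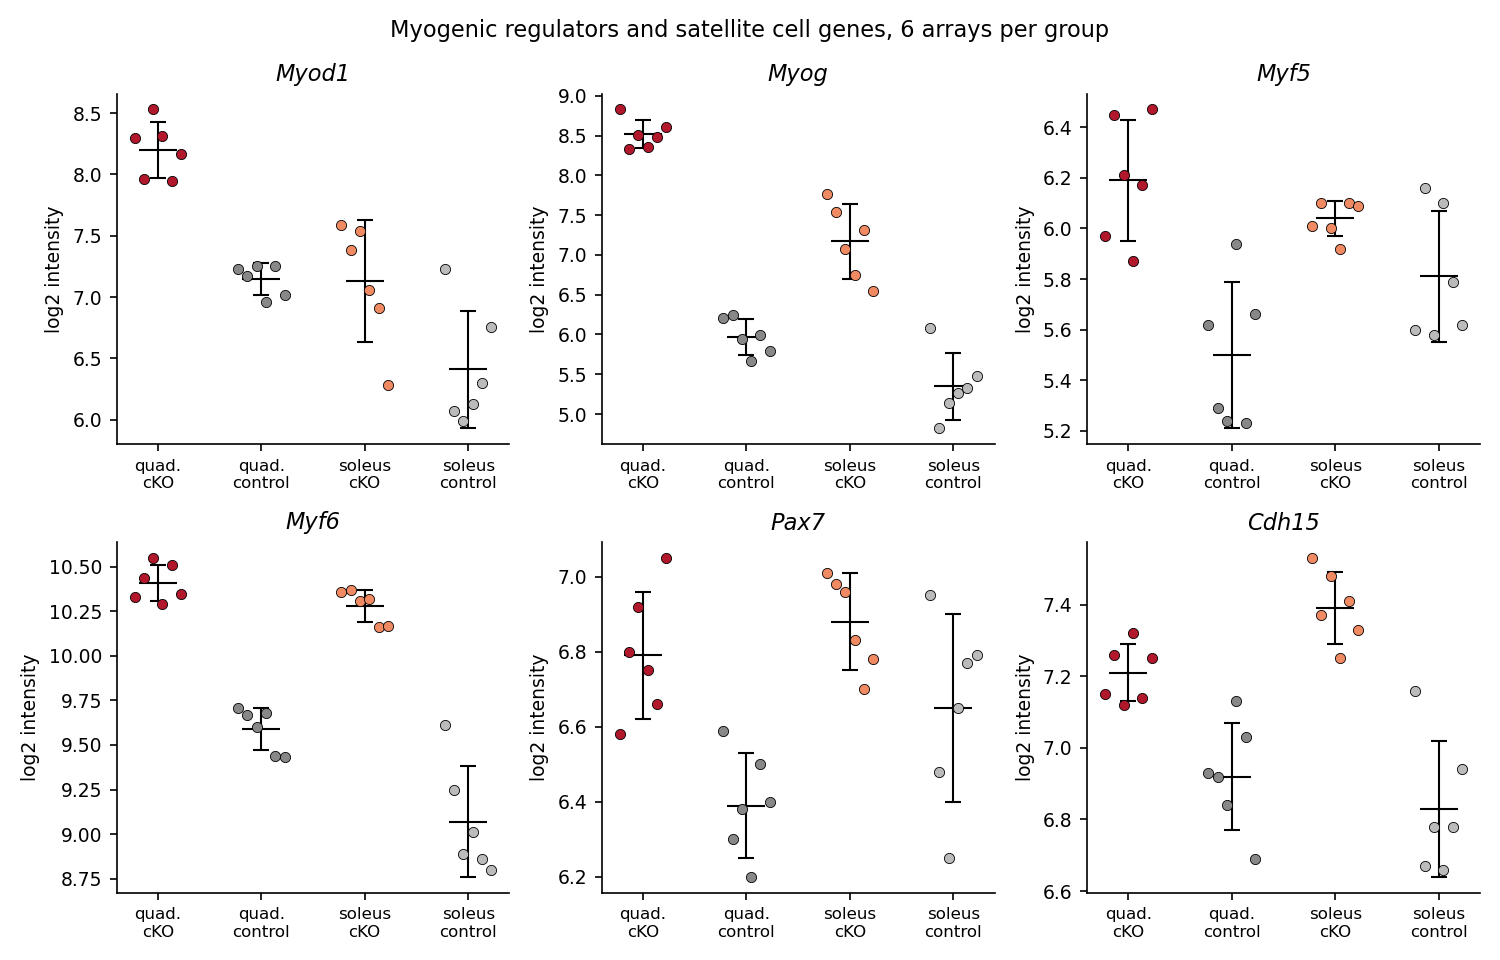
Log2 intensity of each gene on every array (points; replicate numbers run from left to right within a group), with the mean and SD of each group of 6 arrays (bars). Myog lay between 8.33 and 8.83 on quadriceps cKO arrays, above all controls, and soleus control 1 was the highest soleus control for 5 of the 6 genes.

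Myf5, the earliest of the regulators to appear in muscle development, was measured at a lowest, median and highest level of 5.87, 6.19 and 6.47 in quadriceps cKO, against 5.23, 5.46 and 5.94 in quadriceps control. In the soleus it read 5.92, 6.05 and 6.10 in cKO, against 5.58, 5.71 and 6.16 in control. The quadriceps groups overlapped through the control array 4 at 5.94, while 5 of 6 cKO arrays lay above all controls. The soleus groups overlapped, with all cKO arrays inside the range of the controls and above 4 of those 6. The change was 0.69 in quadriceps (SE 0.13, 1.62-fold, adjusted p = 8.57e-05) and 0.23 in soleus (SE 0.13, 95% interval -0.03 to 0.49, adjusted p = 0.207), where it did not pass the test.

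Myod1, which can turn other cell types into muscle when it is introduced into them, read 7.95, 8.23 and 8.53 (lowest, median and highest) in quadriceps cKO, against 6.96, 7.20 and 7.25 in quadriceps control. Its soleus levels were 6.28, 7.22 and 7.59 in cKO, against 5.99, 6.21 and 7.23 in control. Every quadriceps cKO array lay above every quadriceps control, whereas the soleus groups overlapped, with control 1 at 7.23 and cKO 6 at 6.28. Myod1 rose 2.08-fold in quadriceps (log2 change 1.06, SE 0.19, adjusted p = 8.33e-05) and 1.64-fold in soleus (0.71, SE 0.19, adjusted p = 0.00677).

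Myog, the differentiation factor, had levels of 8.33, 8.49 and 8.83 in quadriceps cKO, against 5.67, 5.96 and 6.25 in quadriceps control. In soleus the levels were 6.55, 7.19 and 7.77 in cKO, against 4.82, 5.30 and 6.08 in control. The groups did not overlap in either muscle, and the lowest quadriceps cKO array also lay above the highest soleus cKO array. Myog rose 5.83-fold in quadriceps (log2 change 2.54, SE 0.18, adjusted p = 2.26e-11) and 3.51-fold in soleus (1.81, SE 0.18, adjusted p = 2.18e-08).

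Myf6, the regulator of mature fibres, read 10.29, 10.39 and 10.55 in quadriceps cKO, against 9.43, 9.64 and 9.71 in quadriceps control. Soleus cKO arrays gave 10.16, 10.31 and 10.37, against 8.80, 8.95 and 9.61 for soleus control. The cKO arrays of both muscles lay close together and above all 12 controls. Myf6 rose 1.77-fold in quadriceps (log2 change 0.82, SE 0.10, adjusted p = 4.32e-07) and 2.31-fold in soleus (1.21, SE 0.10, adjusted p = 1.56e-09). Its neighbour on chromosome 10, Myf5, had the changes of 0.69 and 0.23 given above.

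Pax7, the satellite cell transcription factor, was measured at 6.58, 6.77 and 7.05 in quadriceps cKO, against 6.20, 6.39 and 6.59 in quadriceps control. In soleus it read 6.70, 6.90 and 7.01 in cKO, against 6.25, 6.71 and 6.95 in control. The quadriceps groups met at their edges, cKO 1 at 6.58 and control 1 at 6.59, and the soleus groups overlapped widely. Pax7 rose 1.32-fold in quadriceps (log2 change 0.40, SE 0.10, adjusted p = 0.00275). In soleus the change of 0.23 (SE 0.10, 95% interval 0.02 to 0.44) had an adjusted p of 0.109, and it passed without soleus control 1 (0.29, adjusted p = 0.0355). The soleus change also passed without both arrays that stand apart (0.29, adjusted p = 0.0273) and with array quality weights (0.30, 0.0126).

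Cdh15, the satellite cell cadherin, had levels of 7.12, 7.20 and 7.32 in quadriceps cKO, against 6.69, 6.92 and 7.13 in quadriceps control. Its soleus levels were 7.25, 7.39 and 7.53 in cKO, against 6.66, 6.78 and 7.16 in control. All soleus cKO arrays lay above all soleus controls, and in quadriceps 5 of 6 cKO arrays did so. Cdh15 rose 1.22-fold in quadriceps (log2 change 0.28, SE 0.08, adjusted p = 0.00843) and 1.48-fold in soleus (0.56, SE 0.08, adjusted p = 1.15e-05). The quadriceps call was lost when each array was centred on its 75th percentile (0.20, adjusted p = 0.0719), with quantile normalization (0.20, adjusted p = 0.0901) and when each array was centred on the median of the genes tested (0.16, adjusted p = 0.131). That last scaling moved the median change of all genes in quadriceps by -0.12.

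**Figure D2:**
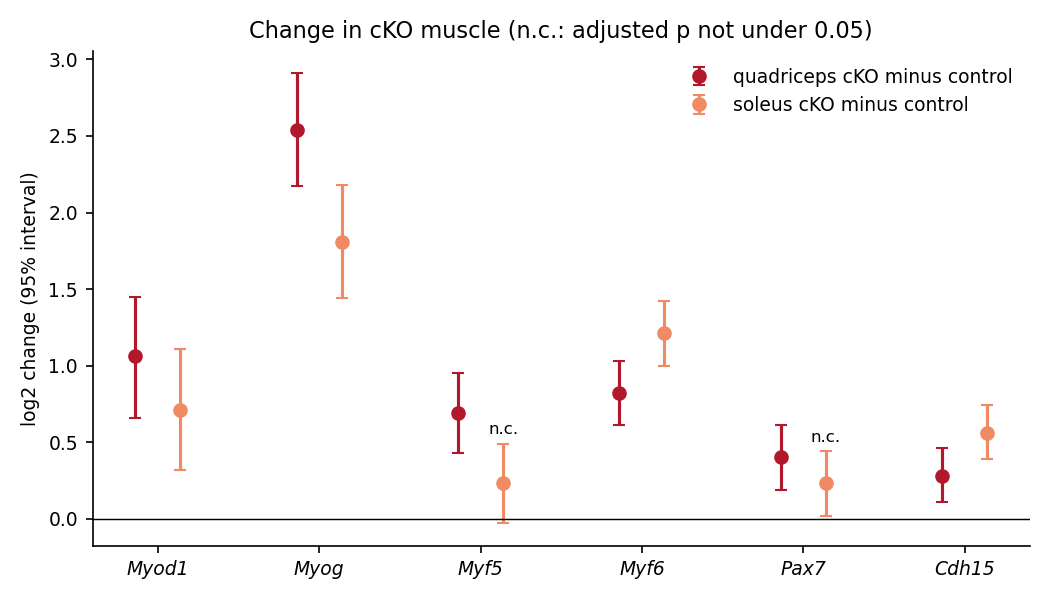
Log2 change of each gene, the cKO mean less the control mean, by muscle (points) with 95% intervals from the limma fit; n.c. marks an adjusted p of 0.05 or more. All 12 changes are above 0, with Myf5 and Pax7 in soleus not passing the test, and the Myog change is 2.54 in quadriceps and 1.81 in soleus.

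Whether a change differed between the muscles was tested as the quadriceps change minus the soleus change. For none of the 6 genes did this difference pass in limma, although 4 had an unadjusted p under 0.05, and 12.3% of all genes tested were called (7.39% with the higher and 4.89% with the lower change in quadriceps). The difference was 0.73 for Myog (SE 0.25, adjusted p = 0.0589), 0.46 for Myf5 (SE 0.18, adjusted p = 0.0861), -0.39 for Myf6 (SE 0.14, adjusted p = 0.0770) and -0.28 for Cdh15 (SE 0.12, adjusted p = 0.124). Myog and Myf5 thus had the larger change in quadriceps, and Myf6 and Cdh15 in soleus, none of them past the threshold. For Myod1 it was 0.34 (95% interval -0.21 to 0.90, adjusted p = 0.447) and for Pax7 0.17 (-0.12 to 0.46, adjusted p = 0.480). These 2 differences were 0.07 to 0.44 and 0.07 to 0.25 under the alternatives run, with that for Myod1 at 0.18 without soleus control 1 and at 0.14 without both arrays that stand apart. With the 2 muscles of an animal treated as a pair, a random replicate block, Myog (adjusted p = 0.0266), Myf6 (0.0336) and Myf5 (0.0411) passed with the same differences, and the count of all genes called was 2952 against 1966. With the replicate number as a fixed block instead, Myog (adjusted p = 0.0169) and Myf6 (0.0452) passed and Myf5 did not (0.0795). Array quality weights brought calls on Myf5 (0.64, adjusted p = 0.00573), Myf6 (-0.47, 0.00624) and Cdh15 (-0.33, 0.0166). Centring on the median of the genes tested did so for Myf6 (-0.49, 0.0340) and Cdh15 (-0.38, 0.0404). Centring on the array median did so for Myf6 alone (-0.43, 0.0393). None passed with the 75th percentile or quantile normalization. Without soleus control 1, Myf6 (-0.50, adjusted p = 0.00396) and Cdh15 (-0.34, adjusted p = 0.0288) passed, and without quadriceps control 4, Myf5 did (0.55, adjusted p = 0.0279). Without both of these arrays, Myf5 (0.59, adjusted p = 0.0164), Myf6 (-0.48, 0.00507) and Cdh15 (-0.30, 0.0387) passed. Other single arrays whose removal brought a call were soleus control 2 (Myog, 0.84, adjusted p = 0.0304), soleus cKO 1 (Myog, 0.85, 0.0247), soleus cKO 2 (Myog, 0.81, 0.0438) and quadriceps control 6 (Myf6, -0.42, 0.0488, and Cdh15, -0.33, 0.0496).

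The soleus, a muscle with many slow fibres, was also set against the quadriceps within each genotype. In controls, 3 of the 6 genes were lower in soleus and none was called higher, whereas 33.5% of all genes were called, 18.3% lower and 15.2% higher. Myod1 fell by 0.73 (SE 0.19, 1.66-fold, adjusted p = 0.00400), Myog by 0.62 (SE 0.18, 1.54-fold, adjusted p = 0.00871) and Myf6 by 0.52 (SE 0.10, 1.43-fold, adjusted p = 2.88e-04) on the log2 scale. For each of the 3 genes soleus control 1 was the single soleus control within the range of the quadriceps controls, and without it the differences were -0.90, -0.77 and -0.63. Myf5 (0.31, SE 0.13, adjusted p = 0.0570) and Pax7 (0.25, SE 0.10, adjusted p = 0.0540) lay higher in soleus without passing, and both passed with the animal as a replicate block (adjusted p = 0.0284 and 0.0273). Myf5 also passed without any 1 of quadriceps controls 4 and 6 and soleus controls 1, 3 and 6 (differences 0.34 to 0.40, adjusted p 0.0109 to 0.0448), and Pax7 without any 1 of quadriceps control 1 and soleus controls 2 and 3 (0.29 to 0.33, 0.00853 to 0.0417). Without both arrays that stand apart Myf5 passed as well (0.44, adjusted p = 0.00724). Over all alternatives run the difference was 0.21 to 0.49 for Myf5 (adjusted p 0.00269 to 0.210) and 0.15 to 0.33 for Pax7 (0.00853 to 0.286). Pax7 was not called without both arrays that stand apart (0.16, adjusted p = 0.246), with array quality weights (0.18, 0.187) or with arrays centred on their median (0.15, 0.286), and with that last scaling Myf5 was not called either. Cdh15 differed by -0.09 (95% interval -0.26 to 0.08, adjusted p = 0.421).

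In cKO muscles 2 of the 6 were called lower in soleus than in quadriceps. Of all genes 28.8% were called, 16.9% lower and 11.9% higher, so the calls on the 6 are near that total share. Myod1 fell by 1.08 (SE 0.19, 2.11-fold, adjusted p = 1.67e-04) and Myog by 1.35 (SE 0.18, 2.55-fold, adjusted p = 3.50e-06) on the log2 scale. The cKO groups of both genes did not overlap between the muscles. Myf6 differed by -0.13 (SE 0.10, 95% interval -0.34 to 0.08, adjusted p = 0.345), Myf5 by -0.15 (SE 0.13, adjusted p = 0.366), Pax7 by 0.08 (SE 0.10, adjusted p = 0.550) and Cdh15 by 0.19 (SE 0.08, adjusted p = 0.0914). Cdh15 passed with each array centred on its 75th percentile (0.28, adjusted p = 0.0204), with quantile normalization (0.29, adjusted p = 0.0211) and when each array was centred on the median of the genes tested (0.30, adjusted p = 0.0111). It also passed with a fit on the arrays of this comparison alone (0.19, adjusted p = 0.0315), with array quality weights (adjusted p = 0.0174) and without both arrays that stand apart (0.19, adjusted p = 0.0344), and with arrays centred on their median it was 0.12 (adjusted p = 0.269). Centring on the median of the genes tested moved the median of all genes in this comparison by 0.11. The test of whether the soleus to quadriceps difference depends on genotype is the test of the preceding paragraphs with its sign turned.

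**Figure D3:**
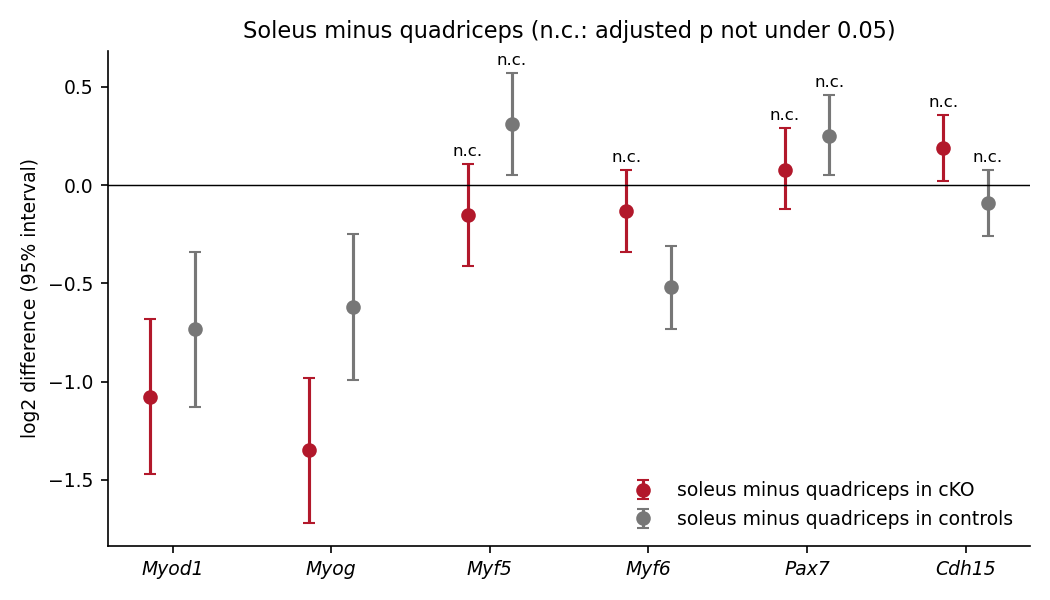
Log2 difference of each gene, soleus minus quadriceps, in cKO and in control mice (points) with 95% intervals from the limma fit; n.c. marks an adjusted p of 0.05 or more. Myod1 and Myog are lower in soleus in both genotypes, and Myf6 is called lower in controls (-0.52) and not in cKO (-0.13).

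From highest to lowest group mean, Myod1 ran from quadriceps cKO (8.20) through quadriceps control (7.15) and soleus cKO (7.13) to soleus control (6.41). Its quadriceps control and soleus cKO groups overlapped, as did both soleus groups. For Myog the order was quadriceps cKO (8.52), soleus cKO (7.17), quadriceps control (5.97) and soleus control (5.35), and of these neighbours only the control groups overlapped. Myf6 had the same order, at 10.41, 10.28, 9.59 and 9.07, with a gap between the cKO and the control groups and overlap within each pair. Myf5 had its highest mean in quadriceps cKO (6.19) and its lowest in quadriceps control (5.50), with soleus cKO (6.04) and soleus control (5.81) between, and each neighbouring pair overlapped. Pax7 and Cdh15 were highest in soleus cKO (6.88 and 7.39), followed by quadriceps cKO (6.79 and 7.21), and all their neighbouring groups overlapped.

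Genes that work with these regulators were counted from lists chosen with earlier results of these data known. Known targets of the regulators rose in 17 of 23 tested genes and fell in 1 in quadriceps (median change 1.58), and rose in 17 of 23 and fell in none in soleus (median 0.74), where the medians of all genes were -0.01 and -0.02. These are 73.9% of the list in either muscle, set beside 22.3% of all genes called higher in quadriceps and 13.2% in soleus, with 17.7% and 9.94% called lower. The transcription factor Runx1 rose by 2.88 and 1.22 (quadriceps and soleus, adjusted p = 1.15e-16 and 2.28e-09). The acetylcholine receptor subunits, classical targets at E-boxes, rose as well: Chrng by 1.87 and 0.36 (adjusted p = 2.44e-13 and 0.0124), Chrnd by 1.77 and 0.74 (5.90e-13 and 4.70e-06) and Chrnb1 by 1.04 and 1.48 (9.38e-08 and 5.37e-10). The retinoblastoma gene Rb1, needed for myoblasts to leave the cell cycle, rose by 2.04 and 1.07 (1.12e-14 and 5.74e-09). The myosin light chain Myl6b rose by 2.54 and 2.22 (3.10e-11 and 1.03e-09). The myosin-binding protein Mybph rose by 4.40 in soleus (adjusted p = 2.82e-13) and differed by 0.39 in quadriceps (adjusted p = 0.167), where it passed without the 2 arrays that stand apart (0.00293).

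Of 18 myoblast fusion genes 10 rose and 2 fell in quadriceps (median 0.35), and 3 rose and 2 fell in soleus (median 0.03, which was -0.01 with arrays centred on their 75th percentile). The list had 55.6% of its genes higher in quadriceps, against 22.3% of all genes, and in soleus its 16.7% higher and 11.1% lower lay near the 13.2% and 9.94% of all genes. Mymk (myomaker), the membrane protein required for myoblasts to fuse and a target of Myog and Myod1, rose by 2.83 in quadriceps and 1.61 in soleus (adjusted p = 2.78e-11 and 1.07e-06). Its fusion partner Mymx (myomixer) rose by 0.54 in quadriceps (adjusted p = 2.81e-04) and differed by -0.02 in soleus (adjusted p = 0.901). Of the adhesion proteins of fusing cells, Jam3 rose by 0.93 and 0.79 (1.41e-05 and 1.88e-04) and the integrin subunit Itga3 by 0.63 and 1.04 (6.87e-04 and 2.61e-06). The tetraspanin Cd81 rose by 0.52 in quadriceps (2.95e-05) and differed by 0.20 in soleus (0.0930), and Jam2 fell by 0.66 in soleus (9.41e-06) and differed by -0.01 in quadriceps (0.956). Without the 2 arrays that stand apart, the soleus count was 5 higher and 3 lower.

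Other satellite cell markers rose in 11 of 21 genes and fell in 1 in quadriceps (median 0.35), and rose in 6 of 21 in soleus (median 0.06). That is 52.4% and 28.6% of the list higher, against 22.3% and 13.2% of all genes. The adhesion molecule Ncam1, which both satellite cells and fibres without a nerve make, rose by 2.59 and 1.41 (adjusted p = 9.14e-14 and 1.90e-08). Vcam1 rose by 0.87 and 0.60 (2.67e-07 and 1.02e-04), the engulfment receptor Megf10 by 1.26 and 0.58 (6.87e-10 and 1.69e-04), the growth factor receptor Fgfr4 by 0.67 and 0.59 (1.39e-05 and 1.29e-04), and the laminin receptor subunits Itga7 by 0.59 and 1.01 (0.00393 and 2.08e-05) and Itgb1 by 0.70 and 0.46 (6.96e-08 and 6.98e-05). Centring on the median of the genes tested left 8 higher in quadriceps. Many of these genes are also made by fibres, nerves, vessels or connective tissue.

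Notch signalling, which keeps satellite cells quiescent, had 7 of 18 genes higher and none lower in quadriceps (median 0.21), and 1 higher in soleus (median -0.01). The 38.9% higher in quadriceps compares with 22.3% of all genes, and the 5.56% in soleus with 13.2%. The receptors Notch2 and Notch1 rose by 0.81 and 0.67 in quadriceps (adjusted p = 4.29e-07 and 5.97e-05) and differed by 0.24 and -0.03 in soleus (0.0845 and 0.883), Notch2 passing there without soleus control 3 (0.30, 0.0401). The ligand Dll1 rose by 0.68 in quadriceps (1.20e-04) and differed by -0.09 in soleus (0.670), while Numbl, a homologue of the Notch inhibitor Numb, rose in both (0.42 and 0.31, adjusted p = 1.37e-04 and 0.00491). Another ligand, Jag2, rose by 0.58 in quadriceps (5.35e-06) and differed by 0.16 in soleus (0.195). The Notch target Hes1 differed by 0.10 in quadriceps (0.652) and by -0.42 in soleus (0.0718), where it passed without soleus cKO 2 (-0.51, 0.0298). The soleus median was 0.03 with arrays centred on their median. 

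Of the signals that activate satellite cells 8 of 18 rose and 4 fell in quadriceps (median 0.13), and 6 rose and 4 fell in soleus (median 0.07). The shares higher were 44.4% and 33.3%, against 22.3% and 13.2% of all genes, and 22.2% fell in each muscle, against 17.7% and 9.94% of all genes. The myostatin antagonist follistatin (Fst) rose by 1.92 and 1.21 (2.20e-10 and 1.18e-06) and the growth factor Igf2 by 1.68 and 0.86 (5.77e-10 and 5.11e-05). Igf1, the main growth factor of muscle mass, rose by 0.69 and 0.55 (1.64e-06 and 6.70e-05), and Fgf7 rose by 1.37 in quadriceps (2.59e-09) and differed by -0.02 in soleus (0.941). Myostatin (Mstn), which restrains muscle growth, fell by 2.70 in quadriceps (2.32e-08) and by 0.85 in soleus (0.0285). The soleus call on Mstn was lost without any 1 of soleus controls 2, 3 and 5 or soleus cKO 1 and 6 (adjusted p 0.0525 to 0.0700, changes -0.82 to -0.76), and Mstn did not exceed the dim limit on 4 of 6 soleus cKO arrays and 1 of 6 soleus controls. Nos1, the neuronal enzyme that makes nitric oxide, was lower in both muscles, with changes of -1.90 in quadriceps (1.39e-06) and -1.52 in soleus (5.93e-05).

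**Figure D4:**
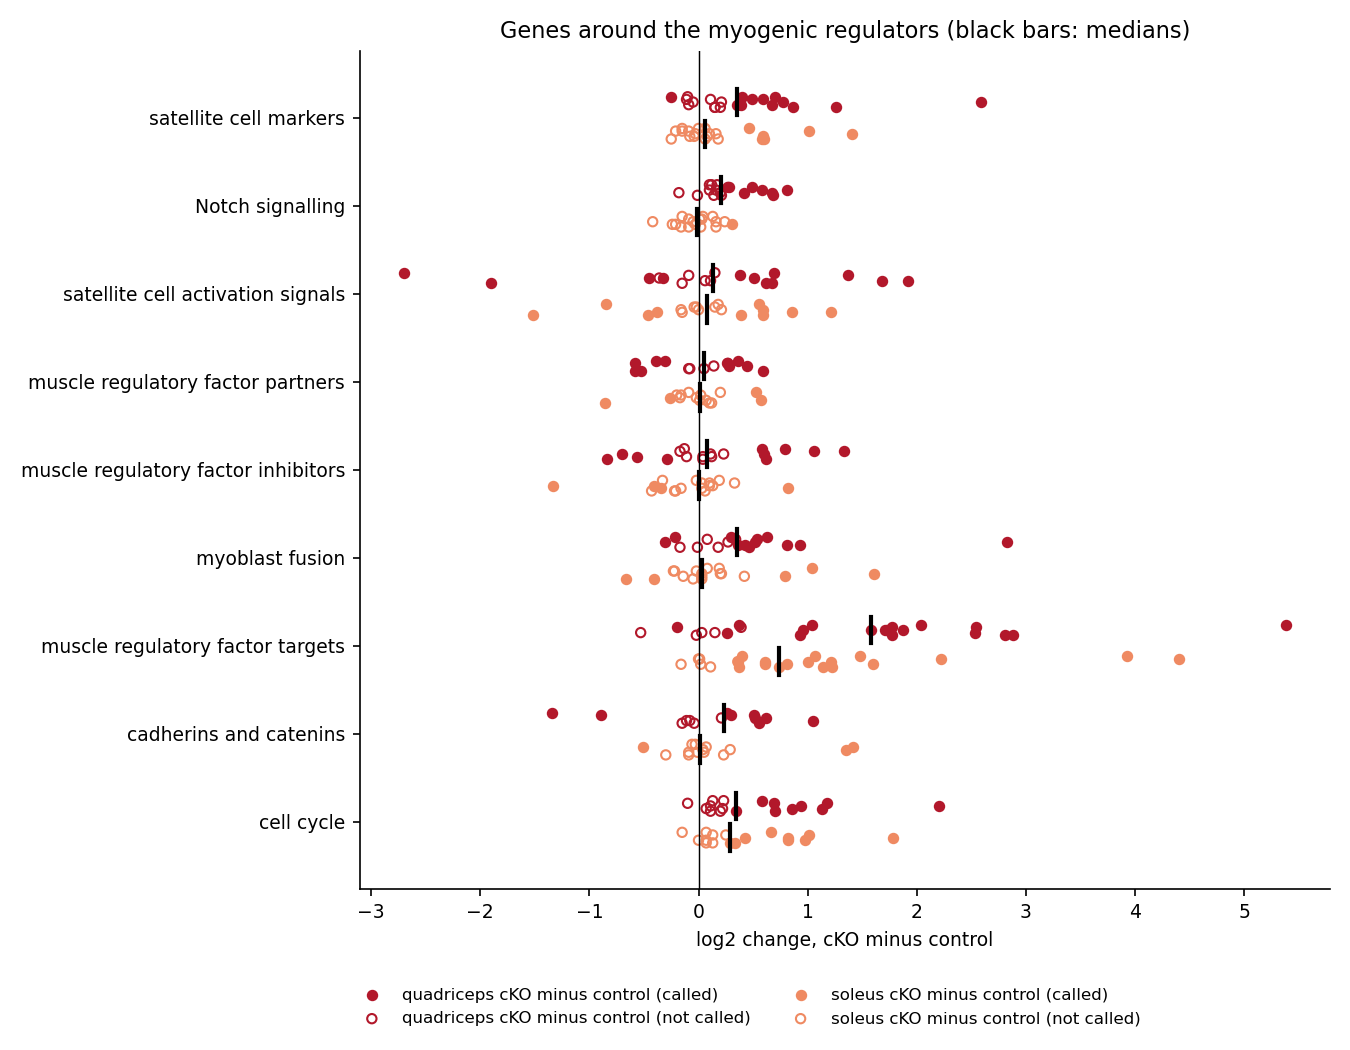
Log2 change, the cKO mean less the control mean, of every tested gene of 9 lists around the myogenic regulators, by muscle (filled: adjusted p under 0.05; open: not), with list medians as black bars. The targets of the regulators have medians of 1.58 in quadriceps and 0.74 in soleus, and the partner list has medians of 0.05 and 0.01.

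Partner factors of the regulators were called in both directions, with 5 of 15 higher and 5 lower in quadriceps (median 0.05) and 2 higher and 2 lower in soleus (median 0.01), and both medians turned negative with arrays centred on their 75th percentile (-0.03 each). In quadriceps 33.3% were called each way, against 22.3% of all genes higher and 17.7% lower, and in soleus the 13.3% each way lay near the 13.2% and 9.94% of all genes. The E protein Tcf12 rose by 0.59 in quadriceps (adjusted p = 4.80e-06) and differed by 0.12 in soleus (0.354), and the related E protein Tcf4 rose by 0.44 (8.27e-04) and differed by -0.17 (0.232). The coactivator Eya1 fell by 0.53 and 0.86 (0.00709 and 1.24e-04), while its relative Eya4 differed by -0.09 in quadriceps (0.472) and rose by 0.57 in soleus (1.23e-04). Vgll3, a cofactor of TEAD factors, rose by 0.36 and 0.53 (0.00728 and 3.28e-04), the quadriceps call being lost when each array was centred on the median of the genes tested (0.23, 0.0643). The chromatin remodelling subunit Smarcd3 and the actin-regulated coactivator Mrtfa both fell by 0.58 in quadriceps (6.63e-06 and 0.00154) and differed by 0.02 and 0.10 in soleus (0.901 and 0.673). Mef2a rose by 0.28 in quadriceps (0.0158), a call lost with the 75th percentile (0.20, 0.0620), and fell by 0.26 in soleus (0.0399). The soleus call on Mef2a was lost without any 1 of soleus controls 2 to 5 or of soleus cKO arrays other than number 4 (adjusted p 0.0510 to 0.112, changes -0.27 to -0.21), and with the animal as a replicate block (0.0506).

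Inhibitors of the regulators rose in 6 of 18 and fell in 4 in quadriceps (median 0.07, -0.01 with the 75th percentile), and rose in 1 and fell in 3 in soleus (median 0.01, -0.03 with that scaling). The 33.3% higher and 22.2% lower in quadriceps compare with 22.3% and 17.7% of all genes, and the 5.56% and 16.7% in soleus with 13.2% and 9.94%. Id2 and Id4, which bind E proteins and keep them from the regulators, rose in quadriceps by 1.33 and 0.62 (5.83e-09 and 1.67e-05) and differed by 0.10 and 0.06 in soleus (0.626 and 0.714). The deacetylase Hdac4, known to repress MEF2, rose by 1.06 in quadriceps (1.61e-07) and differed by 0.33 in soleus (0.0568), where it passed with the animal as a replicate block (0.0436) and without soleus control 2 (0.39, 0.0283). Id3 rose by 0.79 in quadriceps (3.44e-04) and differed by 0.19 in soleus (0.437). Id1 rose by 0.60 in quadriceps (0.00181) and fell by 0.41 in soleus (0.0384), a soleus call lost without any 1 of soleus controls 2, 4 and 5 or soleus cKO 1 to 4 (adjusted p 0.0596 to 0.126, changes -0.41 to -0.27). Bhlhe41, known to repress Myod1 activity, rose by 0.82 in soleus (0.00650) and fell by 0.56 in quadriceps (0.0424). Its quadriceps call was lost without quadriceps control 4 or 5 or quadriceps cKO 1, 2 or 3 (adjusted p 0.0609 to 0.121, changes -0.55 to -0.44). Twist2 fell by 0.34 in soleus (0.0165) and differed by 0.12 in quadriceps (0.367). Dach2, a repressor of Myog in mouse muscle with its nerve, did not exceed the dim limit on any cKO array. It also did not exceed that limit on 2 of the 6 quadriceps controls. Its level was at least 1.13-fold lower in quadriceps and at least 1.77-fold lower in soleus. No p-value is given, as Dach2 passed the filter on dim genes through control arrays alone.

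Among 14 other cadherins and catenins 7 rose and 2 fell in quadriceps (median 0.23), and 2 rose and 1 fell in soleus (median 0.01, -0.02 with arrays centred on their 75th percentile). The 7 of 14 higher in quadriceps compare with 22.3% of all genes, and in soleus the 14.3% higher and 7.14% lower lay near the 13.2% and 9.94% of all genes. N-cadherin (Cdh2) fell by 0.51 in soleus (adjusted p = 6.96e-05) and rose by 0.30 in quadriceps (0.00736), a call lost when each array was centred on the median of the genes tested (0.18, 0.0985). Cdh11 rose by 1.05 in quadriceps (1.20e-07) and differed by 0.05 in soleus (0.798), whereas R-cadherin (Cdh4) and the catenin Ctnna3 fell by 1.34 and 0.89 in quadriceps (1.26e-07 and 5.37e-06) and differed by -0.06 and 0.07 in soleus (0.818 and 0.773). The endothelial cadherin Cdh5 differed by -0.04 and -0.30 (0.844 and 0.103). The plakophilin Pkp2 rose by 1.42 in soleus (5.35e-07) and by 0.51 in quadriceps (0.0204), where the call was lost without quadriceps control 4 (0.43, 0.0558) or quadriceps cKO 2 (0.42, 0.0610). T-cadherin (Cdh13), made largely by vessels and fibres, rose by 0.62 and 1.35 (1.09e-04 and 1.72e-09).

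Cell cycle genes rose in 9 of 17 in each muscle and fell in none (medians 0.34 and 0.29), or 52.9% of the list against 22.3% and 13.2% of all genes higher. The replication helicase subunit Mcm6 rose by 2.20 and 1.78 (6.20e-09 and 4.72e-07) and the mitotic kinesin Kif11 by 0.94 and 0.82 (3.08e-08 and 6.12e-07). Of the other helicase subunits, Mcm4 rose by 0.34 in quadriceps (0.0201) and differed by 0.13 in soleus (0.480). Mcm2, Mcm3 and Mcm5 were not called in either muscle (changes -0.10 to 0.23), nor were Pcna, Cdk1 and Cdc20. Mki67 rose by 1.18 and 1.01 (adjusted p = 1.22e-04 and 0.00108) and Ccna2 by 1.13 and 0.98 (4.42e-04 and 0.00286). For both genes the cKO and control groups overlapped in each muscle. Cyclin E1 (Ccne1) rose by 0.58 and 0.66 (7.35e-05 and 2.87e-05), and the nucleotide reductase subunit Rrm2 by 0.70 and 0.33 (6.31e-06 and 0.0212), a soleus call lost without soleus control 3 (0.29, 0.0600) or soleus cKO 5 (0.29, 0.0612). Topoisomerase Top2a rose by 0.86 and 0.82 (9.09e-05 and 2.43e-04), and with the mean of its probe sets its quadriceps change was 0.22 (0.239). In soleus it did not exceed the dim limit on 3 of the 6 control arrays.

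Markers of other cells moved in the same arrays. All 7 macrophage markers rose in both muscles, and their summed level on the log2 scale was 10.04 to 10.41 in quadriceps cKO, against 9.24 to 9.97 in quadriceps control, and 9.80 to 10.39 in soleus cKO, against 9.06 to 9.57 in soleus control. Of 4 fibro-adipogenic progenitor markers 3 rose in quadriceps and 1 in soleus, with summed levels of 12.69 to 12.88 in quadriceps cKO, against 12.23 to 12.84 in quadriceps control. In soleus their summed levels were 12.36 to 12.72 in cKO, against 12.61 to 12.78 in control. In quadriceps no endothelial marker and no marker of smooth muscle and pericytes passed, of 4 each, and in soleus 3 of each fell. Of 2 Schwann cell markers 1 fell in quadriceps and none passed in soleus. Summed muscle fibre markers read 15.17 to 15.25 in quadriceps cKO, against 15.18 to 15.22 in quadriceps control, and 15.02 to 15.12 in soleus cKO, against 14.95 to 15.15 in soleus control. Of these 7 fibre markers 2 rose and 3 fell in quadriceps (1 fell with quantile normalization), and 1 rose and 3 fell in soleus. Slow troponin I (Tnni1) rose by 2.53 and 0.81 in quadriceps and soleus (adjusted p = 3.75e-10 and 0.00506), and Myh7 rose by 2.33 in quadriceps (4.82e-08). Fast troponin I (Tnni2) fell by 0.52 and 0.91 (6.61e-06 and 1.43e-09). The fast myosin Myh4 fell by 2.56 in soleus (SE 0.55, 9.20e-04), where the groups overlapped. Soleus controls 1 and 4 read 7.97 and 7.41 for Myh4 and the other soleus controls 10.87 to 11.78, against 6.87 to 9.57 in soleus cKO. The part of these cells in the changes of the 6 genes was not tested.

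For each of the 6 genes the 3 tested genes with the highest Pearson correlation over the 24 arrays were listed, as a description in which the points share arrays and the spread between groups. Spg21 led for both Myog (0.96) and Myod1 (0.91), and for Myog it was followed by the death receptor family member Tnfrsf23 (0.95) and Mymk (0.95), and for Myod1 by Osbpl5 (0.90) and Derl1 (0.89). Closest to Myf6 were the calmodulin kinase subunit Camk2d (0.95), the channel protein Panx1 (0.95) and Snap47 (0.94). Pax7 was closest to Fgfr4 (0.86), Zdhhc1 (0.84) and the ion channel Trpm4 (0.84), and the correlation of Pax7 with Fgfr4 was 0.76 after group means were taken out. The genes closest to Cdh15 were Hdgfl2 (0.94), Msantd3 (0.93) and Dynlrb1 (0.93), and those closest to Myf5 were Eid1 (0.88), Hprt (0.84) and Actr3 (0.84). After group means were taken out, Spg21 had 0.59 with Myog and 0.65 with Myod1, and Mymk had 0.41 with Myog. Cdh15 had 0.86 with Msantd3 and 0.75 with both Hdgfl2 and Dynlrb1, and Myf5 had 0.71 with Hprt. The remaining pairs lay between 0.35 and 0.67.

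**Figure D5:**
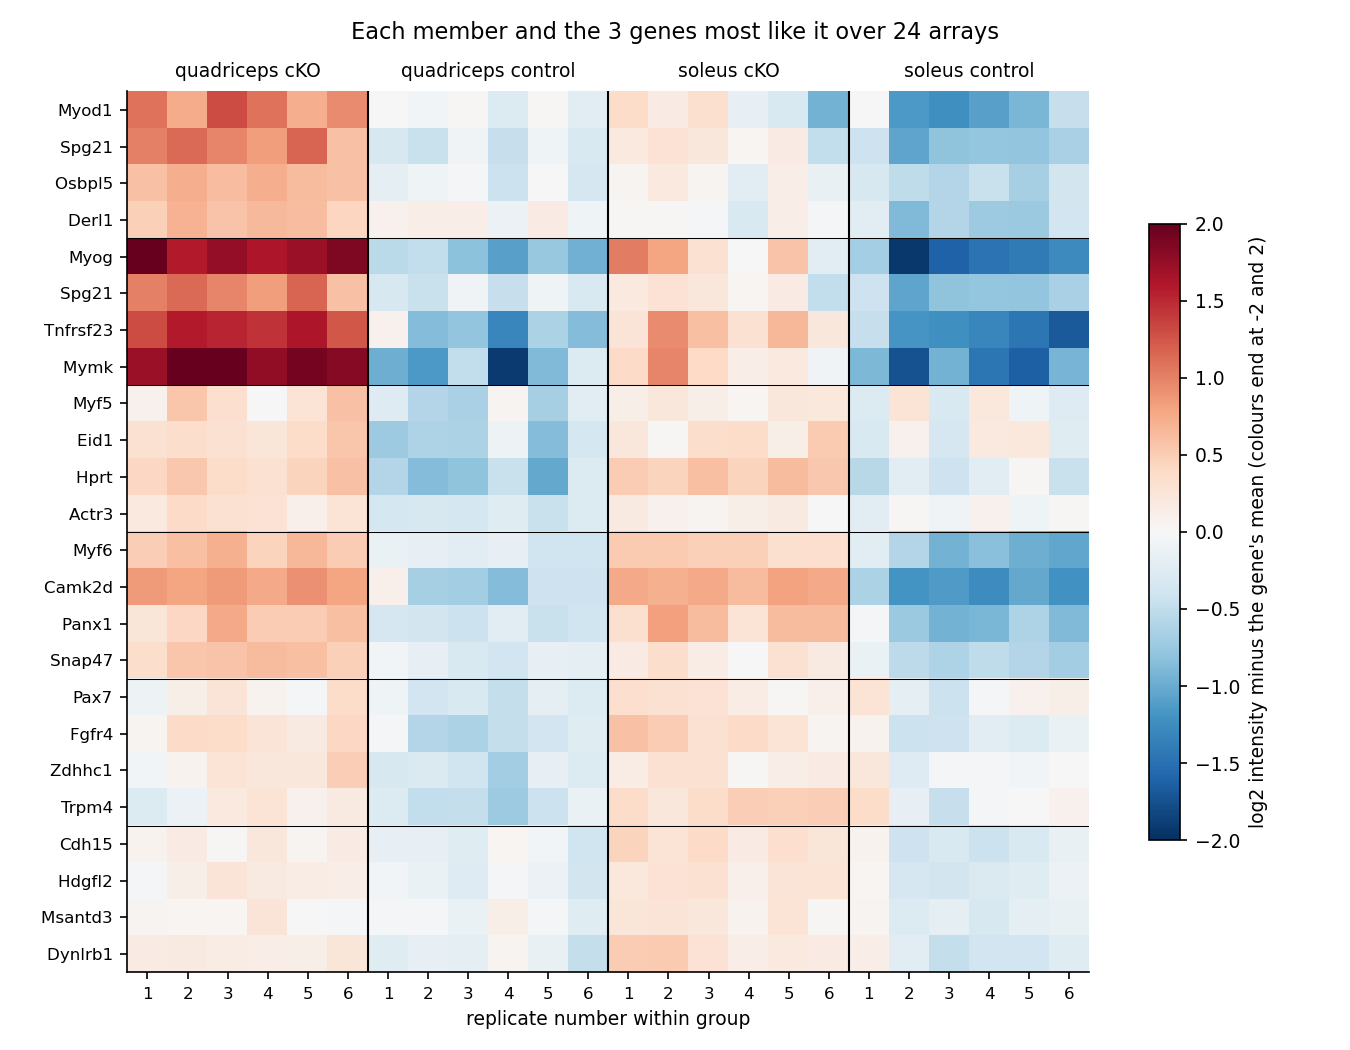
Log2 intensity minus the gene's mean over 24 arrays (colour) for each of the 6 genes and the 3 genes most like it, with arrays in columns by group and replicate number. Myog and Mymk are highest on all 6 quadriceps cKO arrays, and soleus control 1 is less blue than the other soleus controls for Myod1, Myog and Myf6.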

How the data were processed

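The deposited values are intensities, which the authors gave for each probe set on each array. Affymetrix Expression Console, RMA and the genome build mm10 are named, per the submitters' processing notes. The values are on a linear scale (1.76 to 10075) and were turned to log2. Of 35557 probe sets 21789 carried 1 symbol, 1621 several and 12147 none listed here; symbols were updated through Entrez numbers (21698 matched RefSeq, GRCm38.p6). The probe set with the highest mean stood for a gene. Genes above the array's 30th percentile (the dim limit, 3.51 to 3.72) on at least 6 arrays were kept, 15999 of 19938. A gene dim on every array of a group has its fold as a bound, "at least N-fold", against the mean of the higher of limit and value.

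One limma model of 4 group means (R 4.3.3, limma 3.58.1, eBayes; 20 residual degrees of freedom, prior 6.52) gave all changes, with Benjamini-Hochberg adjustment over the 15999 genes, called under 0.05, two-sided. The members and lists were chosen with earlier results of these data known. The text names the genes of each list that are among its 4 of smallest p in either muscle, and for each of the 6 genes the 3 most like it, among them Fgfr4. The cell cycle genes set beside Mcm6 that were not called in soleus, and Mki67 and Ccna2, were named apart from this rule. They are not in the counts of named genes. The labels call the arrays biological replicates, and the number of arrays limits precision. No scan date or other batch was used here. The script was tested on simulated data.

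Arrays share numbers 1 to 6 across groups. Deviations from group means correlated between the quadriceps and soleus of 1 genotype and number at 0.22 to 0.45 in cKO and 0.16 to 0.31 in controls, and every array correlated best with its own number. Such pairs entered the replicate block as muscles of 1 animal, although the labels give different ages for the cKO pair of number 4. Between genotypes the correlation was above 0.1 in 3 of 6 quadriceps pairs and 4 of 6 soleus pairs. Alternatives were other scalings, filters, arrays in the fit, weights, an intensity trend, mean probe sets, blocks, age and leaving out each array.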

Additional observations from a re-analysis of the deposited data

Results flagged for a closer look

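None of the 6 genes had an array far from its group by Dixon's test. In the limma fit that gave all changes, none passed the test of a difference between the muscles, while several did under the alternatives given above. Among 65 genes in 260 combinations of gene and group, 14 single arrays stood far from the other 5 of their group. Chance gives about 1 in 20, and the total of 14 of 260 is near that share. The total says nothing on whether several flags fall on the same array, as they did on soleus control 1 and quadriceps control 4. Soleus control 1 was high for Mybph (8.17, the others 5.97 to 6.31) and Fst (7.38, the others 6.50 to 6.80) and low for Id2 (5.92, the others 6.42 to 6.68) and Mstn (3.31, the others 4.28 to 4.76). Quadriceps control 4 was low for Notch1 (6.13, the others 6.88 to 7.21) and Cd81 (10.10, the others 10.62 to 10.78). Among other soleus controls, number 5 was low for Mcm6 (3.43, the others 4.50 to 4.70) and number 2 for Hes1 (6.65, the others 6.97 to 7.01). Among soleus cKO arrays, number 5 was high for Hdac4 (8.67, the others 8.46 to 8.54), number 1 was high for Twist2 (5.73, the others 5.23 to 5.37), number 3 was low for Pkp2 (6.08, the others 6.97 to 7.43) and number 6 was low for Top2a (3.89, the others 4.52 to 4.79). Among quadriceps cKO arrays, number 6 was high for Cdh13 (10.60, the others 10.08 to 10.26) and number 2 was low for Eya4 (7.63, the others 7.96 to 8.14).

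For 36 of the 64 genes with a tested difference the quadriceps change minus the soleus change passed the test in limma, and it was positive for 26 and negative for 10. Of all genes 12.3% passed (7.39% positive and 4.89% negative), but most of the 64 were named for the smallest p within their lists in either muscle, so the shares are not comparable. Dach2 was not tested for a difference, as it did not exceed the dim limit on any cKO array. Among targets it was 1.66 for Runx1, 1.51 for Chrng, 1.03 for Chrnd, 0.98 for Rb1 and -4.0 for Mybph. Among fusion and satellite cell genes it was 1.23 for Mymk, 0.56 for Mymx, 0.65 for Jam2, 1.18 for Ncam1 and 0.67 for Megf10. Notch genes had 0.76 (Dll1), 0.70 (Notch1), 0.57 (Notch2) and 0.42 (Jag2). Among partners it was 0.61 for Tcf4, 0.54 for Mef2a, 0.47 for Tcf12, -0.60 for Smarcd3, -0.67 for Eya4 and -0.67 for Mrtfa. Among inhibitors it was 1.23 for Id2, 1.01 for Id1, 0.73 for Hdac4, 0.56 for Id4, 0.47 for Twist2 and -1.38 for Bhlhe41. Activation signals had 1.39 (Fgf7), 0.83 (Igf2), 0.71 (Fst) and -1.85 (Mstn). The value for Mstn rests on soleus levels that did not exceed the dim limit on 4 cKO arrays and 1 control array. Cadherins and catenins had 1.0 (Cdh11), 0.81 (Cdh2), -0.73 (Cdh13), -0.91 (Pkp2), -0.96 (Ctnna3) and -1.28 (Cdh4). Adjusted p-values lay between 5.21e-08 for Runx1 and 0.0386 for Twist2.

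The difference for Fst was not called without quadriceps control 2, quadriceps cKO 2 or 6 or soleus cKO 3 or 5 (adjusted p up to 0.0603). That for Twist2 was not called without quadriceps control 1 or 5, quadriceps cKO 2, 3 or 5, soleus control 2, 4 or 5 or soleus cKO arrays other than number 1 (adjusted p up to 0.0713). The calls on Mymx (0.46, adjusted p = 0.0524) and Jag2 (0.32, adjusted p = 0.0672) were lost when each array was centred on the median of the genes tested.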

How the results depend on the processing

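Over 30 results on the 6 genes and 846 alternatives, 795 kept direction and side of the threshold, 3 lost the call (Cdh15 in quadriceps, above), 48 gained one and none turned its direction. Over 154 results on other named genes and 4394 alternatives these counts were 4263, 74, 23 and 34. All 34 turned values were not called in either setting. Counts of calls stayed within 1.5 times, except the difference between muscles, 1966 calls, which had 3570 with array quality weights and 2952 with the animal as a replicate block; with the number as a fixed block it had 2475. Leaving out each array gave 5692 to 7240 calls in quadriceps, 3235 to 4109 in soleus, 1576 to 2856 for the difference, 4745 to 5759 between muscles in controls and 3569 to 5098 in cKO. The animal block called Myf5 and Pax7 between control muscles and 3 differences between muscles (above), called Hdac4 and lost Mef2a in soleus, and changed no other call on a named gene. Centring on the median of the genes tested and leaving out both arrays that stand apart were alternatives chosen after seeing the data.

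The share of calls that were higher was 60.2% for the difference, 45.4% between control muscles and 41.3% between cKO muscles, and 31.5% to 52.0%, 22.3% to 56.2% and 24% to 73.8% under 4 other scalings. The cause was not tested for the values that turned. In soleus, centring on the array median gave 0.01 for Notch1, 0.01 for Mymx and 0.02 for Fgf7, and array weights gave 0.00 for Notch1 and 0.02 for Mymx. Smarcd3 in soleus was -0.02 with the 75th percentile and with quantile normalization, and -0.00 when centred on the median of the genes tested, which in quadriceps gave -0.02 for Hes1 and -0.00 for Twist2. With array weights quadriceps values were 0.03 for Cdh5 and 0.01 for Jam2. Without both arrays that stand apart soleus values were 0.02 for Mymx, -0.00 for Id2 and -0.01 for Ctnna3. Leaving out each array gave ranges in soleus of -0.07 to 0.02 for Notch1, -0.09 to 0.03 for Mymx, -0.08 to 0.03 for Fgf7, -0.00 to 0.05 for Smarcd3, -0.00 to 0.18 for Id2, -0.01 to 0.13 for Ctnna3 and for Cdh11 and -0.13 to 0.01 for Cdh4. In quadriceps the ranges were -0.03 to 0.20 for Hes1, -0.10 to 0.09 for Cdh5 and -0.06 to 0.07 for Jam2. The number of arrays, 6 a group, limits all of these.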

Other observations

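Soleus cKO 6 had the lowest soleus cKO level of Myod1 (6.28) and Myog (6.55). The fast myosin Myh4 read 9.57 on that array, against 6.87 to 7.38 on the other 5 soleus cKO arrays, while Myh7 (12.94) and Tnni1 (12.28) lay within the range of the others. Among soleus controls Myh4 read 7.97 on number 1, 7.41 on number 4 and 10.87 to 11.78 on the rest. Soleus control 4 read 6.13 for Myod1 and 5.27 for Myog. A link of Myh4 with these levels was not tested.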
